A study of Mus musculus with 5 samples.

Results

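The collagen genes of the mouse were described in RNA of 5 right brain hemisphere samples of male C57BL/6 mice aged 5 months. They were taken as every gene whose symbol has the form of Col, a number, the letter a and a second number, which gave 44 of the 47729 genes in the count table. C57BL/6 is an inbred laboratory strain, no treatment or altered allele is given in the labels, and all 5 samples form 1 group with no control. The samples carry separate numbers in their titles, but nothing says that each came from a separate animal, so the p-values speak for the spread among these samples alone, and that spread could be technical. They are called brains 1 to 5 in accession order. A hemisphere holds every cell type of the brain together, so fewer cells of a type and less RNA per cell cannot be told apart, and no level here is assigned to a cell type.

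Collagens are proteins of the extracellular matrix in which 3 chains wind into a triple helix, and each chain repeats a unit of glycine followed by a pair of other residues. Fibrillar collagens have a long unbroken helix and pack into the fibrils of connective tissue, which in the brain is found mainly in the meninges and around larger vessels. Basement membrane collagens have interrupted helices and form or border the sheets that lie under vessels and at the brain surface. A further small group is known for being made by neurons. Type VI collagen forms beaded microfilaments beside basement membranes, FACIT collagens sit on the surface of fibrils, and short-chain collagens form networks.

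The 44 genes were put into 7 classes by protein structure and known site. The neuronal class held Col19a1, Col23a1 and Col25a1, the basement membrane class held 8 genes, the fibrillar class 11, the type VI class 6, the other FACIT class 8, the short-chain class 3 and the remaining class 5. Col19a1 is a FACIT-like collagen by structure and was placed with the neuronal genes for its known site. Of the collagen symbols looked for, only Col21a1 had no row in the table.

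The glycine unit leaves a mark on the genes themselves, which is shown here for 6 members that the comparisons below turn on. Glycine is coded by GGN, so a coding exon of 54 bases can hold 6 units. The lines below give the first such inner coding exon with 6 GGN codons in step for 6 members, read 5′ to 3′ on the gene's own strand from GENCODE M21 transcripts (GRCm38). Capitals mark the GGN codons that recur every 3 codons.
Col25a1, chr3:130517684-130517737, plus strand, coding exon 13: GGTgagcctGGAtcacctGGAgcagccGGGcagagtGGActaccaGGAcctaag
Col4a1, chr8:11245211-11245264, minus strand, coding exon 7: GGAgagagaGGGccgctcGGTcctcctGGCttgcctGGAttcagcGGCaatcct
Col4a2, chr8:11413979-11414032, plus strand, coding exon 16: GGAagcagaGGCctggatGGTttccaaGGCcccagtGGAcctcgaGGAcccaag
Col1a2, chr6:4515481-4515534, plus strand, coding exon 8: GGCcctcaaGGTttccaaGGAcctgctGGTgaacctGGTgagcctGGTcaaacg
Col11a2, chr17:34051480-34051533, plus strand, coding exon 15: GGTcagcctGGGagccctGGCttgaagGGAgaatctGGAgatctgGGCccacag
Col6a1, chr10:76719623-76719676, minus strand, coding exon 9: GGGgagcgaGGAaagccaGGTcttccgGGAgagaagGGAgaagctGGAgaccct

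Each of the 6 exons begins with a glycine codon and holds 18 whole codons, so each adds whole units to the helix. How often such exons occur differed between the classes. Exactly 54 bases were found in 21.1% of 109 inner coding exons of neuronal collagens, in 4.43% of 361 of basement membrane collagens and in 48.6% of 627 of fibrillar collagens. An exon length that is any multiple of 9 bases keeps the repeat in step, and the median gene had 77.1% such exons in the neuronal class, 45.1% in the basement membrane class and 84.6% in the fibrillar class. By the median of this last measure the neuronal class lay nearer to the fibrillar class, whereas by the share of 54-base exons it lay nearer to the basement membrane class.

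In the length of the unbroken repeat the neuronal genes lay with the basement membrane genes. The longest run of GGN every 3 codons was 40 to 57 units in neuronal collagens, 30 to 66 in basement membrane collagens and 216 to 344 in fibrillar collagens. Col24a1 and Col27a1, fibrillar collagens known from bone and cartilage, had the shortest fibrillar runs at 216 and 217 units. Col4a1 had 79.2% of its codons in runs of at least 5 units, split into 22 runs, whereas Col1a2 had 77.2% in 2 runs. Type VI runs reached 87 units in both Col6a1 and Col6a2, and the other FACIT genes ranged from 32 to 113. These are properties of the annotated transcripts, not measurements in the brains, and genes of a family are not independent of each other.

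**Figure D1:**
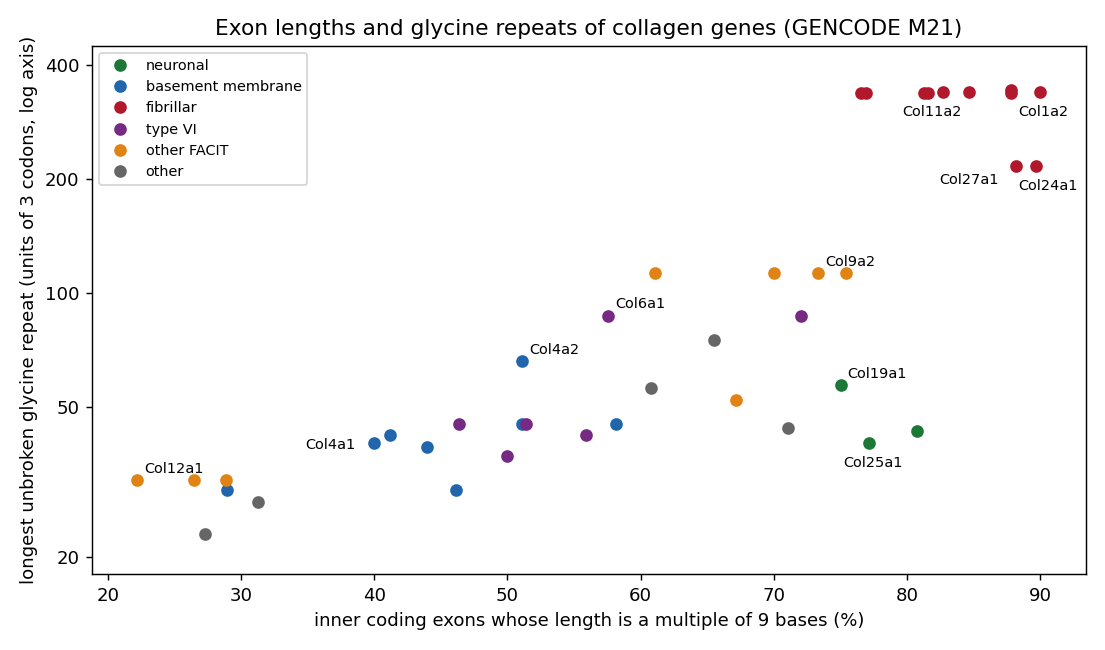
Each point is a collagen gene, placed by the percentage of its inner coding exons whose length is a multiple of 9 bases (x axis) and by its longest unbroken glycine repeat in units of 3 codons (y axis, log scale), with colours for the classes. The fibrillar genes sit at the upper right with runs of 216 to 344 units, the neuronal genes at the right with 40 to 57 and the basement membrane genes at the lower middle with 30 to 66. The 3 short-chain genes have 2 coding exons, so no inner one, and are not drawn.

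The 5 libraries held 13184234 to 15570064 counts, and collagens took 0.0618% ± 0.00395 of them (SD, n = 5). Levels are given as RPKM, which divides reads by gene length and by library depth, recomputed from the counts. Every collagen had at least 1 count in every brain, with a lowest count of 4, and 20 of the 44 reached a mean of 1 RPKM. That line was reached by 55.8% of 21620 protein-coding genes. The median collagen averaged 0.889 RPKM, against 1.84 RPKM for the median protein-coding gene. The highest collagen stood at the 85.4th percentile of protein-coding genes, so no collagen was among the most abundant RNAs of the hemisphere. The top 1, 3 and 5 collagens made up 19.0%, 39.2% and 50.6% of the summed RPKM. These shares depend on gene length: with the longest coding transcript the top gene made up 16.1%.

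Levels between genes depend on the length by which reads are divided. The length in the deposited table lay within 10% of the union of annotated exons for 41 of the 44 genes. For 8 genes it was more than 1.5 times the longest coding transcript, namely Col1a2, Col25a1, Col6a2, Col19a1, Col26a1, Col11a1, Col27a1 and Col3a1. Their levels are higher with the transcript length, and this moves some of them up the order: Col1a2 averaged 5.52 RPKM on that scale, Col6a2 5.05, Col19a1 3.90 and Col11a1 2.20 RPKM. Orders of levels below use the recovered length unless the transcript length is named.

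The highest collagen in every brain was Col6a1, the first chain of type VI collagen. It stood at 14.8, 20.2, 16.5, 14.5 and 17.9 RPKM in brains 1 to 5 (16.8 ± 2.36, mean ± SD, n = 5). Brains 2 and 5 were high and brains 1 and 4 low. The partner chain Col6a2 stood at 2.79, 2.99, 2.66, 2.73 and 2.94 RPKM, with a much narrower spread (2.82 ± 0.142). Col6a1 over Col6a2 had a log2 ratio of 2.52 ± 0.15, a 5.74-fold difference in the same direction in all 5 brains, and it was 3.48-fold with the transcript length. A further chain, Col6a3, averaged 0.630 RPKM, a log2 ratio of -4.53 ± 0.19 to Col6a1. The chains Col6a4, Col6a5 and Col6a6, which lie next to each other on chromosome 9, averaged 0.309, 0.266 and 0.150 RPKM. The RNAs of the chains of this protein were thus far apart in level. Col6a1 made up 80.1% of the type VI total.

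Col4a1 and Col4a2, the main network chains of the basement membrane of vessels, came next. Col4a1 stood at 7.56, 8.07, 7.46, 7.81 and 7.84 RPKM in brains 1 to 5 (7.75 ± 0.242). Col4a2 stood at 10.2, 11.2, 10.1, 9.28 and 9.88 RPKM (10.1 ± 0.707). Their ranges did not overlap, and Col4a1 was below Col4a2 in all 5 brains, with a log2 ratio of -0.38 ± 0.09. These genes lie head to head on chromosome 8, Col4a1 at 11198423 to 11312826 on the minus strand and Col4a2 at 11312805 to 11449287 on the plus strand. Their annotated starts are 21 bases apart and their 5′ ends share 22 bases.

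The other type IV genes are also arranged in pairs, and they code for chains of specialised membranes such as that of the kidney glomerulus. Col4a5 stood at 0.923, 0.830, 0.933, 0.880 and 0.700 RPKM and averaged 0.853 ± 0.0948. Its neighbour Col4a6, whose start lies 1309 bases away on the X chromosome, averaged 0.345 ± 0.0287 RPKM. Col4a5 was above Col4a6 in all 5 brains (log2 ratio 1.10 ± 0.14). Against Col4a1 it was lower, with a log2 ratio of -3.05 ± 0.18. Col4a3 and Col4a4, with starts 72 bases apart on chromosome 1, averaged 0.107 ± 0.0372 and 0.149 ± 0.0372 RPKM on mean counts of 15.2 and 22.4, so counting error is large there. Col4a3 over Col4a4 had a log2 ratio of -0.27 ± 0.09, below 0 in all 5 brains. These levels are about as large as the 0.1 RPKM added to both, which draws this ratio and its SD towards 0. The SD of the log2 ratio between brains was 0.09, 0.14 and 0.09 for the Col4a1, Col4a5 and Col4a3 head-to-head pairs. Over all 22 pairs compared it was 0.08 to 0.37 with a median of 0.14. For Col4a3 and Col4a4 the SD is therefore not a sign of a steady ratio.

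Col15a1 and Col18a1, collagens that carry heparan or chondroitin sulfate chains in the basement membrane zone, were at like levels. Col15a1 stood at 1.38, 1.56, 1.31, 1.48 and 1.37 RPKM (1.42 ± 0.0974), and Col18a1 at 1.42, 1.67, 1.25, 1.58 and 1.29 RPKM (1.44 ± 0.180). The order changed from brain to brain. The log2 ratio of Col15a1 over Col18a1 was -0.02 ± 0.08, with Col15a1 higher in 2 of 5 brains (exact two-sided sign-flip permutation test, p = 0.688, adjusted p = 0.720).

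Among the neuronal collagens, Col25a1 was highest. It codes for a membrane-spanning collagen whose shed part is found in amyloid plaques. It stood at 5.18, 6.12, 5.04, 5.32 and 5.85 RPKM in brains 1 to 5 (5.50 ± 0.463). Brains 2 and 5 were again the high ones. With the transcript length Col25a1 averaged 10.6 RPKM, above Col4a2 at 10.4 and Col4a1 at 8.72, so its place behind the basement membrane chains depends on the length.

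Col23a1, another membrane-spanning collagen, stood at 2.51, 3.65, 2.49, 2.72 and 3.08 RPKM (2.89 ± 0.487). Brain 2 was the highest and brains 1 and 3 nearly equal at the low end. Col19a1 stood at 2.47, 2.61, 2.28, 1.99 and 2.71 RPKM (2.41 ± 0.288), with brain 5 highest and brain 4 lowest. Col25a1 exceeded Col23a1 by a log2 ratio of 0.92 ± 0.11, and the ratio of Col19a1 over Col25a1 was -1.16 ± 0.13, each in the same direction in all 5 brains. All 3 neuronal genes were above 1 RPKM in every brain, which held for 4 of 8 basement membrane genes and 5 of 11 fibrillar genes. The neuronal genes were classed by a known site in neurons and the others by structure, so these shares are not like for like.

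The fibrillar class had no dominant gene. Col11a1, a chain known from the fibrils of cartilage, stood at 1.49, 1.64, 1.13, 1.03 and 1.33 RPKM in brains 1 to 5 (1.32 ± 0.249). Its partner Col11a2, the highest fibrillar gene with the recovered length, stood at 3.59, 3.75, 3.05, 3.38 and 3.58 RPKM (3.47 ± 0.267). Col11a1 was below Col11a2, with a log2 ratio of -1.34 ± 0.18 that was negative in all 5 brains. With the transcript length the highest fibrillar gene was Col1a2 at 5.52 RPKM, above Col11a2 at 3.92 RPKM.

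Type V collagen helps to start fibrils. Its chain Col5a1 stood at 2.89, 3.36, 2.397, 2.53 and 3.18 RPKM (2.87 ± 0.410), high in brains 2 and 5. Col5a2 averaged 0.651 ± 0.0706 RPKM and Col5a3 0.621 ± 0.0388 RPKM. Between these chains the log2 ratio of Col5a1 over Col5a2 was 1.98 ± 0.18, and that of Col5a3 over Col5a1 was -2.03 ± 0.24.

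Type I collagen is the main fibrillar collagen of connective tissue. Col1a1 stood at 2.83, 1.99, 2.53, 2.62 and 2.67 RPKM (2.53 ± 0.323), and Col1a2 at 2.35, 2.14, 2.32, 2.57 and 2.49 RPKM (2.38 ± 0.166). Both were lowest in brain 2, where most other collagens were high. The log2 ratio of Col1a1 over Col1a2 was 0.08 ± 0.13, above 0 in 4 of 5 brains (exact two-sided sign-flip permutation test, p = 0.250, adjusted p = 0.289). With the transcript length it was -0.96 ± 0.13 and below 0 in all 5 brains, so the order of these chains depends on the length.

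Col3a1, the partner of type I collagen in soft tissues and a known ligand of the receptor Adgrg1, stood at 0.571, 0.554, 0.545, 0.563 and 0.711 RPKM (0.589 ± 0.0689). Its log2 ratio to Col1a2 was -1.85 ± 0.13. Col24a1 averaged 0.648 ± 0.0908 RPKM and Col27a1 0.734 ± 0.157 RPKM. Col24a1 was the higher of these in 3 of 5 brains (log2 ratio -0.15 ± 0.37, exact two-sided sign-flip permutation test, p = 0.625, adjusted p = 0.688). With the transcript length the log2 ratio was -0.76 ± 0.39 and Col24a1 was the higher in 0 of 5 brains. Col2a1, the main collagen of cartilage, was the lowest fibrillar gene at 0.498, 0.370, 0.341, 0.375 and 0.379 RPKM (0.393 ± 0.0611).

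Of the other FACIT genes, Col9a3 stood at 4.596, 4.81, 4.24, 4.601 and 4.65 RPKM (4.58 ± 0.209), and Col9a2 at 3.26, 3.47, 2.71, 2.97 and 2.77 RPKM (3.04 ± 0.326). Both code for chains of type IX collagen, best known from cartilage. The remaining chain of that protein, Col9a1, averaged 0.105 ± 0.0346 RPKM on a mean of 7.60 counts. It was the lowest collagen by mean but not separate from Col4a3 at 0.107 RPKM, and with the transcript length Col4a3 was lower, at 0.124 RPKM against 0.139 RPKM for Col9a1. The log2 ratio of Col9a3 over Col9a2 was 0.58 ± 0.11 and that of Col9a1 over Col9a2 was -3.94 ± 0.24. For Col9a1 this depends on the 0.1 RPKM added to both levels, and was -4.77 with 0.01 and -1.87 with 1 added. Col9a3 shares 6.07% of its exon bases with Tcfl5 on the opposite strand, and the strand setting of the counts is not given in the sources used here.

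Col16a1, a FACIT of several tissues, stood at 3.32, 3.41, 2.93, 3.13 and 3.44 RPKM (3.25 ± 0.214). Col12a1 averaged 1.21 ± 0.104 RPKM and Col14a1, a like FACIT of tendon and skin, 0.486 ± 0.0335 RPKM, a log2 ratio of 1.16 ± 0.13. Col20a1 averaged 0.974 ± 0.232 RPKM and Col22a1 0.226 ± 0.0364 RPKM.

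The short-chain genes Col8a1 and Col8a2, known from the membrane beneath the corneal endothelium, averaged 1.10 ± 0.0611 and 1.13 ± 0.0737 RPKM. The log2 ratio of Col8a1 over Col8a2 was -0.03 ± 0.14, above 0 in 3 of 5 brains (exact two-sided sign-flip permutation test, p = 0.750, adjusted p = 0.750). Col10a1, a marker of the growth plate of bone, averaged 0.145 ± 0.0464 RPKM on a mean of 6.40 counts.

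The remaining genes all had means below 1 RPKM with the recovered length. Col26a1 averaged 0.924 ± 0.146 RPKM, with 1.12 RPKM in brain 1, but 2.72 RPKM with the transcript length. Col13a1 and Col17a1, membrane-spanning collagens of the neuromuscular junction and of the skin, averaged 0.355 ± 0.0672 and 0.199 ± 0.0528 RPKM, and Col13a1 was higher in all 5 brains (log2 ratio 0.61 ± 0.27). With the transcript length the log2 ratio was 1.02 ± 0.28, and the 0.1 RPKM added to both levels draws it towards 0. Col7a1, which forms the anchoring fibrils of skin, stood at 0.313, 0.523, 0.226, 0.306 and 0.376 RPKM, on counts of 33 to 80. Col28a1 averaged 0.181 ± 0.0302 RPKM. In all, 9 collagens had a mean under 30 counts, where counting error alone is large.

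**Figure D2:**
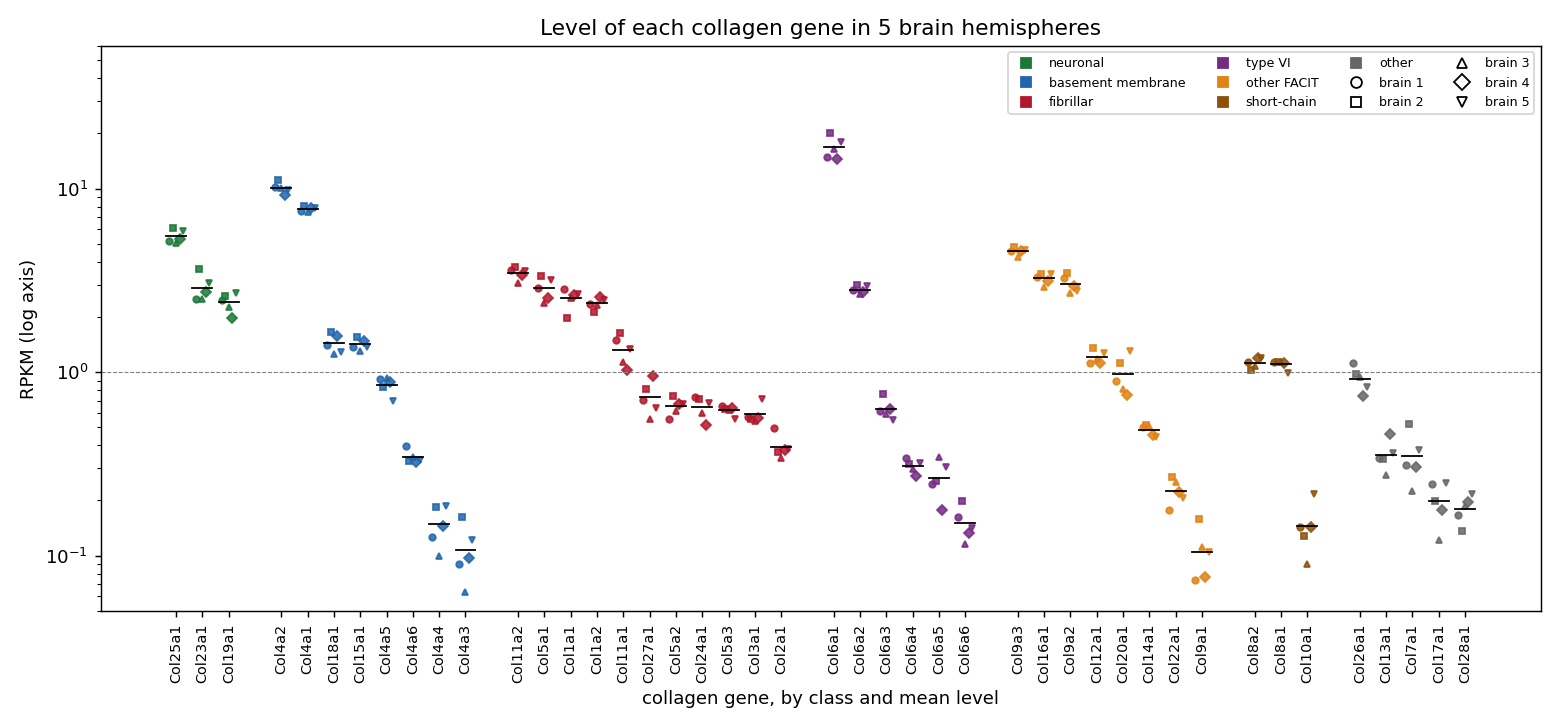
Points give the RPKM (y axis, log scale) of each of the 44 collagen genes (x axis, by class and then by mean level) in each of 5 brains, with symbols for the brains and a black line at the mean. Col6a1 is highest at 16.8 RPKM and Col9a1 at 0.105 and Col4a3 at 0.107 RPKM are lowest, and 20 genes have a mean above the dashed line at 1 RPKM.

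Over the 22 chosen pairs, 18 kept one order in all 5 brains. For those 18 the exact two-sided sign-flip permutation test gave p = 0.063, the smallest that 5 brains allow, and an adjusted p of 0.0764 over the pairs, so no pair could pass 0.05. Ordered by mean level, neighbouring collagens were often not separate: of 43 neighbouring pairs, 10 had the same order in all 5 brains and 7 had ranges that did not overlap. Those 7 included the 5 steps from Col6a1 through Col4a2, Col4a1, Col25a1 and Col9a3 to Col11a2. From Col11a2 down to Col1a2 no step had separate ranges.

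The classes were then compared by their summed RPKM. Neuronal collagens summed to 10.2, 12.4, 9.81, 10.03 and 11.6 RPKM in brains 1 to 5 (10.8 ± 1.14, 12.2% of all collagens). Basement membrane collagens summed to 22.0, 24.0, 21.6, 21.6 and 21.7 RPKM (22.2 ± 1.04, 25.1%). Fibrillar collagens summed to 16.9, 16.7, 14.7, 15.8 and 16.9 RPKM (16.2 ± 0.933, 18.4%). The ranges of these 3 classes did not overlap. Type VI collagens summed to 20.97 ± 2.57 RPKM, a range that overlapped with the basement membrane class, and the other FACIT genes to 13.9 ± 0.902 RPKM.

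The basement membrane class exceeded the fibrillar class by a log2 ratio of 0.45 ± 0.08, a 1.37-fold difference, in 5 of 5 brains. The neuronal class was below the fibrillar class by a log2 ratio of -0.59 ± 0.12 and below the basement membrane class by -1.04 ± 0.11, also in 5 of 5 brains. Each of the 3 comparisons gave p = 0.063 in the exact two-sided sign-flip permutation test, the smallest that 5 brains allow. The first difference rested on the most abundant genes: without Col4a2 and Col11a2, the leading gene of each class, the log2 ratio was -0.08 ± 0.08. With the transcript length the neuronal, basement membrane and fibrillar sums were 17.5 ± 1.71, 24.2 ± 1.14 and 22.4 ± 1.15 RPKM, and the ratio of the basement membrane class over the fibrillar class was 0.11 ± 0.08 on the log2 scale.

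A class sum also depends on how many genes the class holds. By the median over its members, the neuronal class of 3 genes was above both others, with a log2 ratio of 1.32 ± 0.26 to the basement membrane class and of 1.78 ± 0.25 to the fibrillar class. The neuronal genes were chosen for a known site in neurons, whereas the other classes include genes best known from other tissues. A higher median in brain may follow from that choice, which was not tested. Between genes of different classes, Col25a1 was above Col1a2 by a log2 ratio of 1.18 ± 0.18 and Col4a1 above Col1a2 by 1.67 ± 0.12, each in 5 of 5 brains.

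**Figure D3:**
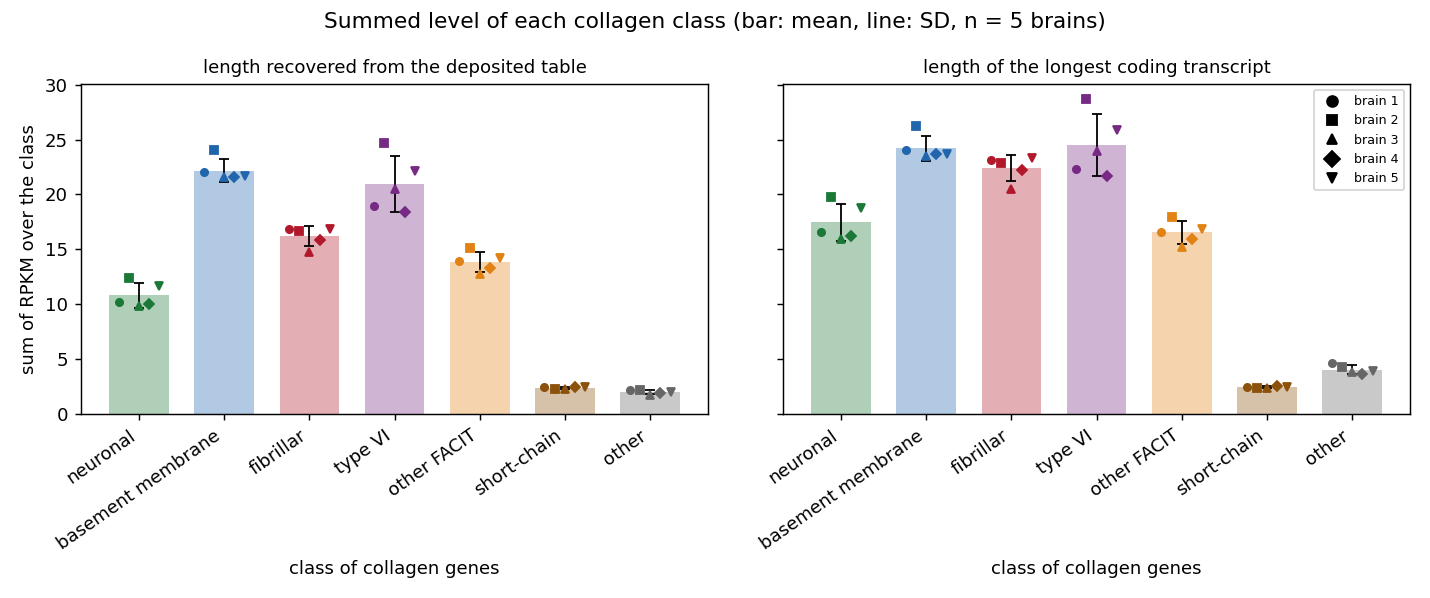
Bars give the mean summed RPKM of each collagen class (y axis) over 5 brains, lines the SD and points the brains, with the length recovered from the deposited table on the left and that of the longest coding transcript on the right. On the left the neuronal, basement membrane and fibrillar sums average 10.8, 22.2 and 16.2 RPKM, and on the right 17.5, 24.2 and 22.4 RPKM.

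The spread of each gene between brains was compared with that of genes of like abundance. The quasi-dispersion of each gene in edgeR was divided by the abundance trend, so that a ratio of 1 is the usual spread, and a gene is called where the adjusted p of the upper tail is under 0.05. Of the 44 collagens, 40 passed the filter on low counts, and Col28a1, Col10a1, Col4a3 and Col9a1 did not. None of the 40 was called by edgeR, against 0.305% of the 14770 genes tested, and none by limma or by DESeq2's dispersion outliers. With no filter on low counts edgeR called 1 of 44 collagens, Col6a1, against 249 of the 28276 genes then tested. At an unadjusted p under 0.05 there were 6 collagens, 15.0% of 40, against 5.43% of all genes tested. With limma there was 1 of 40 on recomputed RPKM, against 738 of all 14770 genes, and 0 of 40 on deposited RPKM, against 677, so the higher share among collagens was found by edgeR and not by limma.

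The 6 in edgeR were Col6a1, Col11a1, Col27a1, Col5a1, Col23a1 and Col7a1. Col6a1 had a ratio to the trend of 7.25 and a 1.38-fold range between brains (edgeR, adjusted p = 0.232). Over the alternatives its adjusted p ran from 0.00688, with no filter on low counts, to 0.933. Col11a1 had a ratio of 5.45 and a 1.56-fold range (adjusted p = 0.427 in edgeR). The others had adjusted p-values of 0.669 to 0.779 in edgeR, with the widest range at 2.20-fold for Col7a1. The median ratio to the trend was 1.07 for collagens and 0.875 for all genes tested. By class it was 2.37 for the 3 neuronal genes, 0.807 for 7 basement membrane genes and 1.10 for 11 fibrillar genes. Col4a1, with a 1.08-fold range in RPKM, was among the steady ones.

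**Figure D4:**
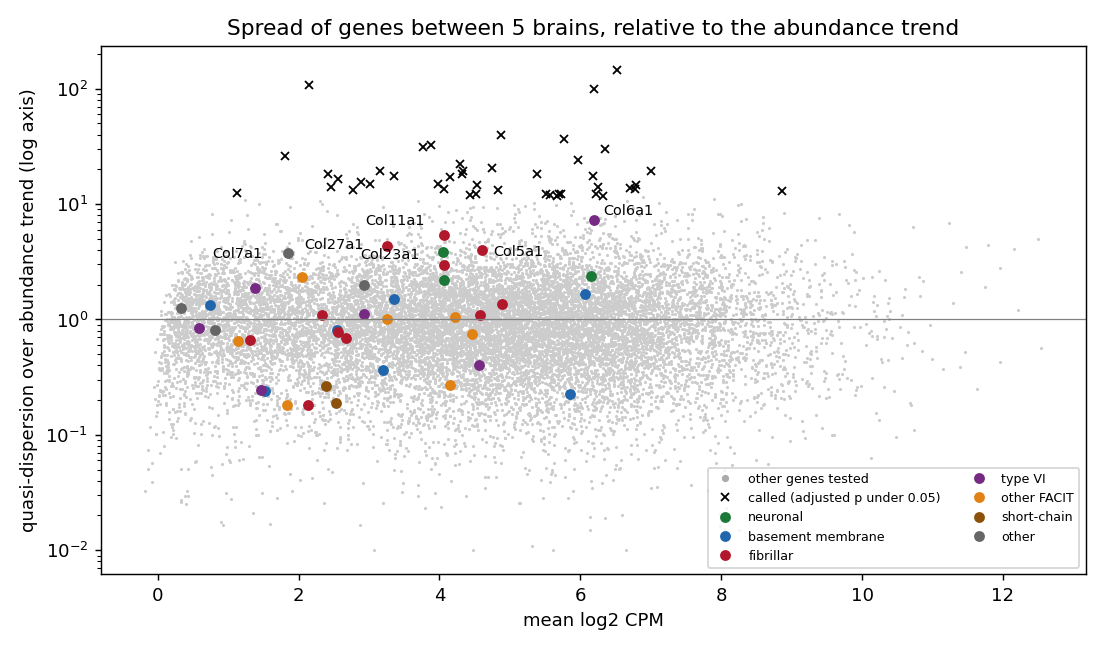
Each point is a gene, placed by its mean log2 CPM (x axis) and by its quasi-dispersion over the abundance trend (y axis, log scale), with collagens coloured by class, called genes as crosses and the 6 collagens at an unadjusted p under 0.05 named. Col6a1 is the highest collagen at 7.25, and no collagen is among the 45 called genes.

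Many collagens shared the brain in which they were highest. On TMM-scaled log2 CPM, 19 of the 40 tested collagens (47.5%) were highest in brain 2, against 20.3% of all genes tested. In brain 3, 18 of 40 were lowest (45.0%), against 16.2% of all genes tested. In brain 2, 31 of 40 collagens lay above their own mean, and in brain 3, 10 of 40 did, against 49.96% and 50.5% of all genes. The mean log2 deviation of the 40 collagens was 0.03, 0.10, -0.11, -0.06 and 0.03 in brains 1 to 5. With DESeq2 size factors the counts were the same, 19 and 18, against 19.4% and 15.9% of all genes. With each library's own total they were 20 and 19, against 25.2% and 18.1%. In the deposited RPKM values 20 were highest in brain 2 and 14 lowest in brain 3, against 32.1% and 14.4% of all genes.

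All 3 neuronal genes and all 7 tested genes of the other FACIT class were above their mean in brain 2, as were 5 of 6 type VI genes, 5 of 7 basement membrane genes and 7 of 11 fibrillar genes. Col1a1, Col1a2, Col3a1 and Col8a2 were instead lowest in that brain on this scale, with log2 deviations of -0.35, -0.16, -0.09 and -0.14. For Col3a1 brain 3 was equally low. Col7a1 had the highest deviation in brain 2, at 0.60. The genes are not independent of each other, and the labels name nothing that sets brain 2 or brain 3 apart.

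**Figure D5:**
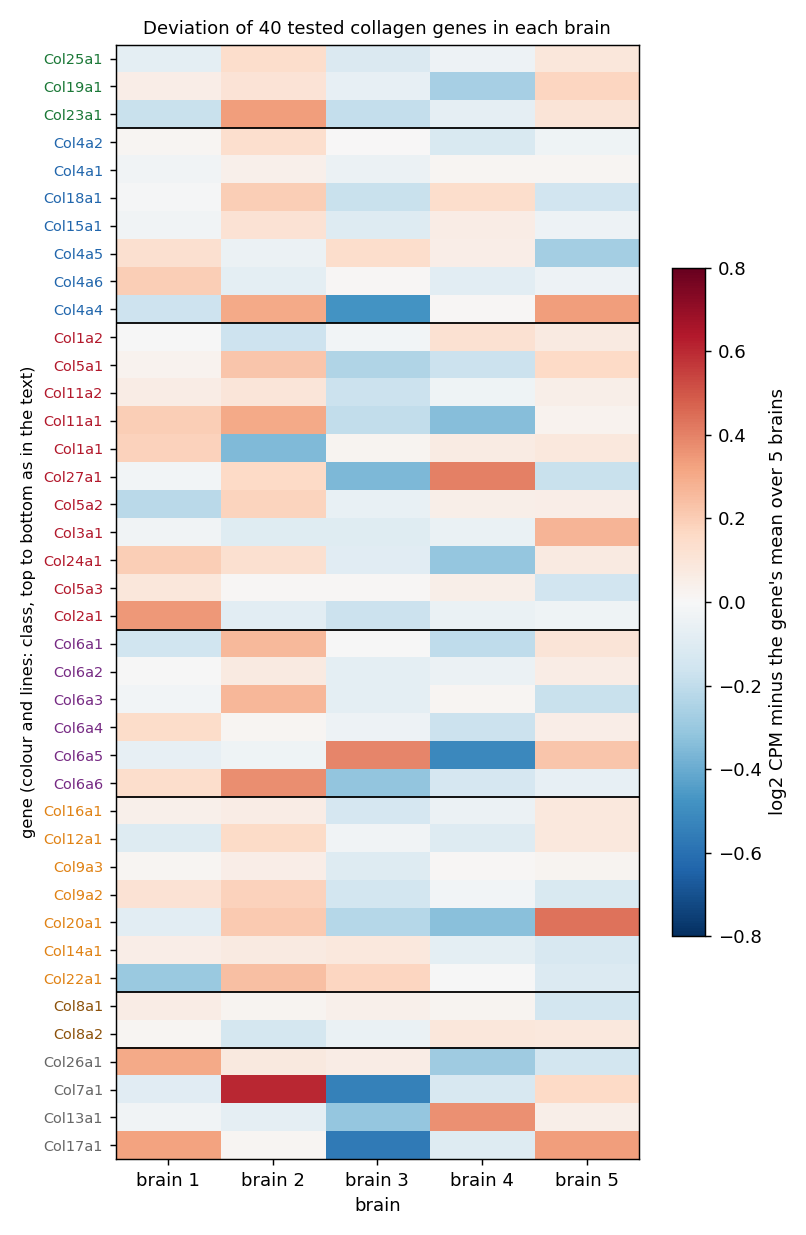
Colours give the log2 CPM of each of 40 tested collagen genes (rows, by class) in each of 5 brains (columns), minus the mean of that gene over the brains. Brain 2 is mostly red, with 31 of 40 genes above their mean, and brain 3 mostly blue, with 10 of 40 above.

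Markers of fibroblasts, endothelial cells, mural cells, neurons and nuclear RNA are given beside this pattern. The 7 fibroblast markers were led by Igfbp2 at 19.5, Dcn at 10.5 and Pdgfra at 7.20 RPKM. Pdgfra is also on the list of oligodendrocyte precursors. The fibroblast markers deviated on average by 0.05, -0.12, -0.13, 0.10 and 0.10 on the log2 scale in brains 1 to 5. Of the 7, 1 was above its mean in brain 2, and they summed to 49.4 to 57.9 RPKM. The 8 endothelial markers, led by Cldn5 at 23.9, Ly6c1 at 9.18 and Flt1 at 8.12 RPKM, deviated on average by -0.04 to 0.03. They summed to 58.1 to 65.7 RPKM. The 10 mural cell markers, led by Vtn at 36.6, Rgs5 at 26.9 and Acta2 at 11.7 RPKM, deviated on average by -0.09 to 0.05. They summed to 95.9 to 108 RPKM. Single markers moved more than these averages: Cldn5 ran from 0.26 in brain 1 to -0.36 in brain 5. Acta2 stood at -0.35 in brain 4, where 4 of the 10 mural markers lay above their mean. In edgeR, 3 of 7 fibroblast, 1 of 8 endothelial and 3 of 10 mural markers had an unadjusted p under 0.05. Of all genes tested, 5.43% did. None of these 25 markers was at 0 in a brain. The 5 neuron markers were all below their mean in brain 2 (-0.07 on average). The 5 long nuclear RNAs, listed as a sign of RNA quality or of nuclear RNA, were led by Malat1 at 129.7, Snhg11 at 112 and Neat1 at 9.79 RPKM. In brain 2, 5 of 5 were above their mean, by 0.18 on average, and the average in the other brains was -0.07 to -0.02. Malat1 was nevertheless highest in brain 5, at 0.17 against 0.14 in brain 2. Neat1 was highest in brain 1, at 0.11 against 0.09 in brain 2, and the other RNAs of the list in brain 2. The part of these RNAs and markers in the collagen pattern was not tested.

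The other cell type lists describe the tissue. Neuron markers were led by Slc17a7 at 382, Snap25 at 369 and Syt1 at 204 RPKM, oligodendrocyte markers included Mbp at 288 and Mobp at 117 RPKM, and astrocyte markers were led by Slc1a2 at 302, Gja1 at 90.4 and Gfap at 50.9 RPKM. Microglia markers were led by C1qa at 36.6, Csf1r at 23.5 and Cx3cr1 at 11.99 RPKM, and those of oligodendrocyte precursors by Gpr17 at 8.59, Pdgfra at 7.20 and C1ql1 at 7.15 RPKM. The choroid plexus list was led by Ttr at 480.4, Clic6 at 6.14 and Kl at 3.05 RPKM, and the ependymal list by Foxj1 at 3.94, Ccdc153 at 3.11 and Tmem212 at 2.24 RPKM. Ependymal markers had a mean log2 deviation of 0.19 in brain 2, with 2 of 4 above their mean, and -0.26 in brain 5. Oligodendrocyte markers had 0.20 in brain 4, with 5 of 5 above and 4 at an unadjusted p under 0.05 in edgeR. In the astrocyte, microglia, precursor and choroid plexus lists it ran from -0.09 to 0.10. The part of these deviations in the collagen pattern was not tested. The erythroid genes Hbb-bs, Hbb-bt, Hba-a1, Hba-a2 and Alas2 were all called by edgeR (adjusted p of 4.85e-07, 0.000620, 0.0183, 0.0278 and 0.0338), highest in brain 3 and lowest in brain 5, and no other cell type marker was. Brain 3, where most collagens were low, thus had the most erythroid RNA. Its part in the collagen values was not tested.

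Genes that build, bind and break down collagen were described from lists chosen beside the members. Of 29 assembly and cross-linking genes, 23 reached 1 RPKM. The highest were P4hb at 45.5 ± 1.64 RPKM, a subunit of the prolyl hydroxylase, Mia3 at 24.2 ± 0.604 RPKM, which helps large cargo leave the endoplasmic reticulum, and Ppib at 20.4 ± 1.22 RPKM, a prolyl isomerase. Some of these also serve other proteins. Of the 25 tested, 0 were called by edgeR and 2 had an unadjusted p under 0.05.

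Collagen receptors were led by Adgrg1 at 29.7 ± 1.31 RPKM, Itgb1, an integrin subunit shared with other ligands, at 19.6 ± 0.981 RPKM, and Ddr1, a receptor kinase for collagen, at 15.8 ± 0.696 RPKM. The known Adgrg1 ligand Col3a1 was thus at 0.589 RPKM where its receptor was at 29.7. Of 8 receptors tested, 0 were called by edgeR and 0 had an unadjusted p under 0.05. In the list of collagen breakdown and its inhibitors, the inhibitors Timp2 at 111 ± 5.44 RPKM and Timp3 at 10.3 ± 0.661 RPKM were above the protease Mmp14 at 4.58 ± 0.297 RPKM, with 0 of 8 called by edgeR and 1 at an unadjusted p under 0.05.

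Partners of collagen in basement membranes were led by Sparc, a collagen-binding protein, at 139 ± 19.3 RPKM, by Agrn at 24.0 ± 1.60 RPKM and by the laminin chain Lamb2 at 7.89 ± 0.503 RPKM. Sparc was the only called gene of the 17 tested (edgeR, adjusted p = 0.0343), with a 1.45-fold range and its highest value in brain 4. Other proteins with a collagen domain were led by the complement genes C1qb at 40.8, C1qa at 36.6 and C1qc at 17.4 RPKM, with 0 of 11 called by edgeR and 1 at an unadjusted p under 0.05.

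Promoter windows of 300 bases, from 250 before to 50 after the start, were matched for 35 of the 44 genes in the RefSeq table for GRCm38.p6, giving 38 windows. Both strands were searched for 3 motifs, and no motif is contained in another. GGGCGG was found in 60.5% of collagen windows, against 35.7% of all 32851 windows. TATAAA was found in 13.2%, against 13.6%, and CCAAT in 34.2%, against 37.4%. The median GC content was 59.8% in collagen windows, against 52.7% in all windows. A match is a description of these letters only.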

How the data were processed

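Libraries of 5 right hemisphere samples were made with a kit for mRNA, as the labels' protocols say. The submitters' processing notes name CASAVA 1.7, STAR 2.4.1d, featureCounts 1.4.6-p4 and the build GRCm38. Neither annotation release nor strand setting is given in the sources used here. The authors deposited whole-number counts per gene, not normalized, and a table of RPKM values. The deposited RPKM values were recovered from the counts by recycling the 5 library totals down the table's rows (100% of 117232 nonzero entries, tolerance 0.0011 RPKM plus a relative 0.0002), so 80% of the values rest on a total that belongs to a different library. RPKM was therefore recomputed from the counts, each library's own total and recovered gene lengths, and the deposited values served as an alternative.

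Symbols and exons came from GENCODE M21 by gene ID (47224 genes matched). Counts were fitted in edgeR 4.0.16 under R 4.3.3 (filterByExpr, TMM, robust quasi-likelihood fit, intercept only), which left 14770 genes. Each quasi-dispersion over its trend was compared with an F distribution on 4 and 15.3 degrees of freedom in the upper tail, with Benjamini-Hochberg adjustment over all genes and a threshold of 0.05. Log2 CPM used a prior count of 2. The test was tested on simulated data. limma 3.58.1 and DESeq2 1.42.0 were alternatives. Pair ratios used RPKM plus 0.1 (alternatives 0.01 and 1) and an exact sign-flip test over 32 sign patterns, and class ratios used sums. Every pair of libraries differed by more than counting noise (chi-square per degree of freedom 2.42 to 4.18). Reads carry no molecular identifiers, so depth covers counting error only. No collagen shared 20% or more of its 50-base words with other genes (highest 4.86%).

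The members, classes, pairs and lists were chosen with earlier results of these data known. Every collagen is accounted for. Of every other list the 3 highest genes by mean RPKM and any called gene are named, except for 1 gene that is not reported here.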

Additional observations from a re-analysis of the deposited data

Results flagged for a closer look

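In 5 of 76 groups of 5 values screened, the highest or lowest brain lay farther from its nearest neighbour than 0.71 of the whole range, Dixon's 95% critical value. Chance flags about 1 in 20 such groups. For Col8a1 brain 5 was low, at 0.995 RPKM against 1.12 to 1.14 in the others (gap over range 0.850). For Col3a1 brain 5 was high, at 0.711 RPKM against 0.545 to 0.571 (0.845). For Col2a1 brain 1 was high, at 0.498 RPKM against 0.341 to 0.379, on counts of 29 to 40 (0.754). The summed level of the basement membrane class was high in brain 2, at 24.0 RPKM against 21.6 to 22.0 (0.801). The log2 ratio of Col4a1 over Col1a2 was high in brain 2 as well, at 1.87 against 1.57 to 1.64 (0.741).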

How the results depend on the processing

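Samples could not be paired with each other because all form 1 group and their numbers were given in accession order. The pair and class ratios were taken within each brain. The ratio of the basement membrane class over the fibrillar class reversed to -0.078 on the log2 scale without the most abundant member of each class. By the median over members, the ratio of the neuronal class over the fibrillar class reversed to 1.78 and that over the basement membrane class to 1.32. Under each of the other 11 alternatives these 3 class ratios kept their direction, and without each brain in turn they ran from 0.43 to 0.48, -0.63 to -0.55 and -1.08 to -1.02. With the transcript length, chosen after seeing the data, the sums were 17.5 (neuronal), 24.2 (basement membrane), 22.4 (fibrillar), 24.5 (type VI), 16.5 (other FACIT) and 4.04 RPKM (remaining genes), and with the union of exons the short-chain sum was 1.99 RPKM.

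Of the pairs, Col1a1 over Col1a2 reversed to -0.83 with counts not divided by length and to -0.96 with the transcript length. Without each brain in turn, Col24a1 over Col27a1 ran from -0.206 to 0.013 (positive without brain 4), Col15a1 over Col18a1 from -0.042 to 0.0041 (positive without brain 2, at 0.0038, and brain 4) and Col8a1 over Col8a2 from -0.068 to 0.024 (positive without brain 5). Col8a1 over Col8a2 was 0.15 with counts not divided by length. These 4 pairs had no single order over the 5 brains, and the cause was not tested. The other 235 pair values kept their direction, though the RPKM added to both levels moved ratios of low genes: Col9a1 over Col9a2 ran from -4.77 with 0.01 to -1.87 with 1, and Col6a3 over Col6a1 from -4.71 to -3.44. With 1 added, Col3a1 over Col1a2 was -1.09, Col5a1 over Col5a2 1.22, Col5a3 over Col5a1 -1.25, Col4a5 over Col4a6 0.46, Col4a5 over Col4a1 -2.24 and Col12a1 over Col14a1 0.57. When a brain was left out, 18 to 19 pairs had one order.

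The number of collagens called by edgeR was 1 of 44 (Col6a1) with no filter on low counts, where 249 of 28276 genes were called. It was 0 without each brain in turn, and collagens at an unadjusted p under 0.05 then numbered 4 to 7. The number of all genes called, 45, became 19 without the robust prior, 10 with limma on recomputed RPKM, 27 with limma on deposited RPKM and 101 with DESeq2, and 18 to 44 without each brain in turn, lowest without brain 5. At 5 samples the exact tests cannot pass 0.05, and below a mean of 30 counts single collagens are limited by counting error.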
